A study of Mus musculus with 18 samples.

Results

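The mRNA levels of 10 genes of fibroblast growth factor (FGF) signalling were examined in mouse liver tumors driven by activated AKT and a mutant YAP. The 10 genes were the 4 FGF receptors Fgfr1, Fgfr2, Fgfr3 and Fgfr4, the co-receptor Klb, and the feedback or output genes Spry1, Spry2, Spry4, Dusp6 and Etv5. They were chosen by name, with earlier results of these data known, and each matched 1 of the 43346 genes in the tumor table. All 10 were among the 18318 genes with enough counts to be tested. Every tumor carried myr-AKT, a membrane-bound and therefore active AKT. YAP-SY tumors had in addition YAP S127A/Y357F, and YAP-S tumors had YAP S127A, so that both forms lack the serine and only YAP-SY also lacks the tyrosine. The 12 tumors formed 4 groups of 3: YAP-SY tumors labelled as cholangiocarcinoma (CCA; numbers 1, 6 and 8), YAP-S CCA tumors (3, 4 and 5), YAP-SY mixed tumors (3, 5 and 9) and YAP-S mixed tumors (2, 7 and 9). A cell line called SB1, whose genotype label is that of YAP-S CCA, gave 3 further samples. Strain, age and the promoter behind the transgenes are not given in the sources used here, SB1 is a single line, and 3 samples of a second line, SY1, were not analysed here.

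FGFs bind receptor tyrosine kinases at the cell surface, which pass the signal through adaptor proteins to RAS and the MAP kinases ERK1 and ERK2. In hepatocytes FGFR4 pairs with beta-Klotho, the product of Klb, to receive the gut hormone FGF15, which represses bile acid synthesis, while FGF21 signals through beta-Klotho mainly with FGFR1. ERK activity in turn induces its own brakes, among them the Sprouty proteins and the phosphatase DUSP6, and the transcription factor ETV5, so that these mRNAs are often read as an output of the pathway. mRNA levels do not measure receptor or ERK activity.

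Tumor libraries held 30656499 to 130035221 counts, and SB1 libraries 25341968 to 30541185. Levels in tumors are given as CPM (counts of a gene relative to all counts of its library) after TMM scaling, and folds and adjusted p-values come from the quasi-likelihood F-test of edgeR, adjusted after Benjamini and Hochberg over all tested genes and called below 0.05. TMM factors were 0.775 to 0.832 in YAP-SY CCA tumors and 1.145 to 1.295 in YAP-S CCA tumors, and with library size alone the all-gene median log2 fold change of this comparison was -0.56 in place of 0. Summed hepatocyte markers were at 136000 to 155000 CPM in YAP-SY CCA tumors, against 47300 to 57900 CPM in YAP-S CCA tumors, with 8 of 10 markers called higher. Cholangiocyte markers summed to 2770 to 4200 CPM in YAP-SY CCA tumors, against 7420 to 10800 CPM in YAP-S CCA tumors, with 7 of 10 called lower. In this sum the YAP-SY tumors labelled CCA were below every mixed tumor, which lay between 4290 and 16500 CPM. Most of it was Spp1, with means of 3270 CPM in YAP-SY CCA and 9250 CPM in YAP-SY mixed tumors. Of the 10 markers, only Sox9 was called lower in CCA than in mixed tumors within YAP-SY, where 2.90% of all tested genes were called. Alb made up most of the hepatocyte sum, with means of 105000 CPM in YAP-SY CCA and 37000 CPM in YAP-S CCA tumors. Fibroblast and stellate cell markers summed to 484 to 657 CPM in YAP-SY CCA tumors, against 1990 to 2490 CPM in YAP-S CCA tumors, with 8 of 10 called lower. Leukocyte markers summed to 102 to 161 CPM in YAP-SY CCA tumors, against 171 to 259 CPM in YAP-S CCA tumors, with 4 of 7 called lower. Endothelial markers, of which 2 of 8 were called higher and 2 lower, summed to 390 to 492 CPM in YAP-SY CCA tumors and 292 to 410 CPM in YAP-S CCA tumors. On the first principal component (38.4% of the variance) the YAP-SY CCA tumors spread widely, at -107, -90.9 and -55.5 for tumors 1, 6 and 8, against 66.1 to 79.2 in YAP-S CCA tumors; without tumor 1, the farthest out, the same number of members, 6, was called in CCA. In bulk tumors, fewer cells of a type and less RNA per cell cannot be told apart, and the part of these cell type differences in the results on the 10 genes was not tested.

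In CCA tumors, Fgfr1, Fgfr3, Spry1, Spry2 and Etv5 were lower and Klb was higher in YAP-SY than in YAP-S. These 6 of 10 calls compare with 39.1% of all tested genes called in the same comparison, 18.3% higher and 20.8% lower, so that a call by itself sets the 10 genes little apart. With library size alone, 1 member was called higher and 7 lower, and the calls over all genes turned to 760 higher and 8064 lower, against 3358 and 3813 with TMM. The median log2 fold change was -0.54 over the 10 genes and 0 over all tested genes. YAP-SY and YAP-S values did not overlap for 7 of the 10 genes, which are the 6 called genes and Fgfr2, against 52.6% of all tested genes. By direction, Klb alone did not overlap upwards, against 24.3% of all tested genes, and 6 genes did so downwards, against 28.3%.

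**Figure D1:**
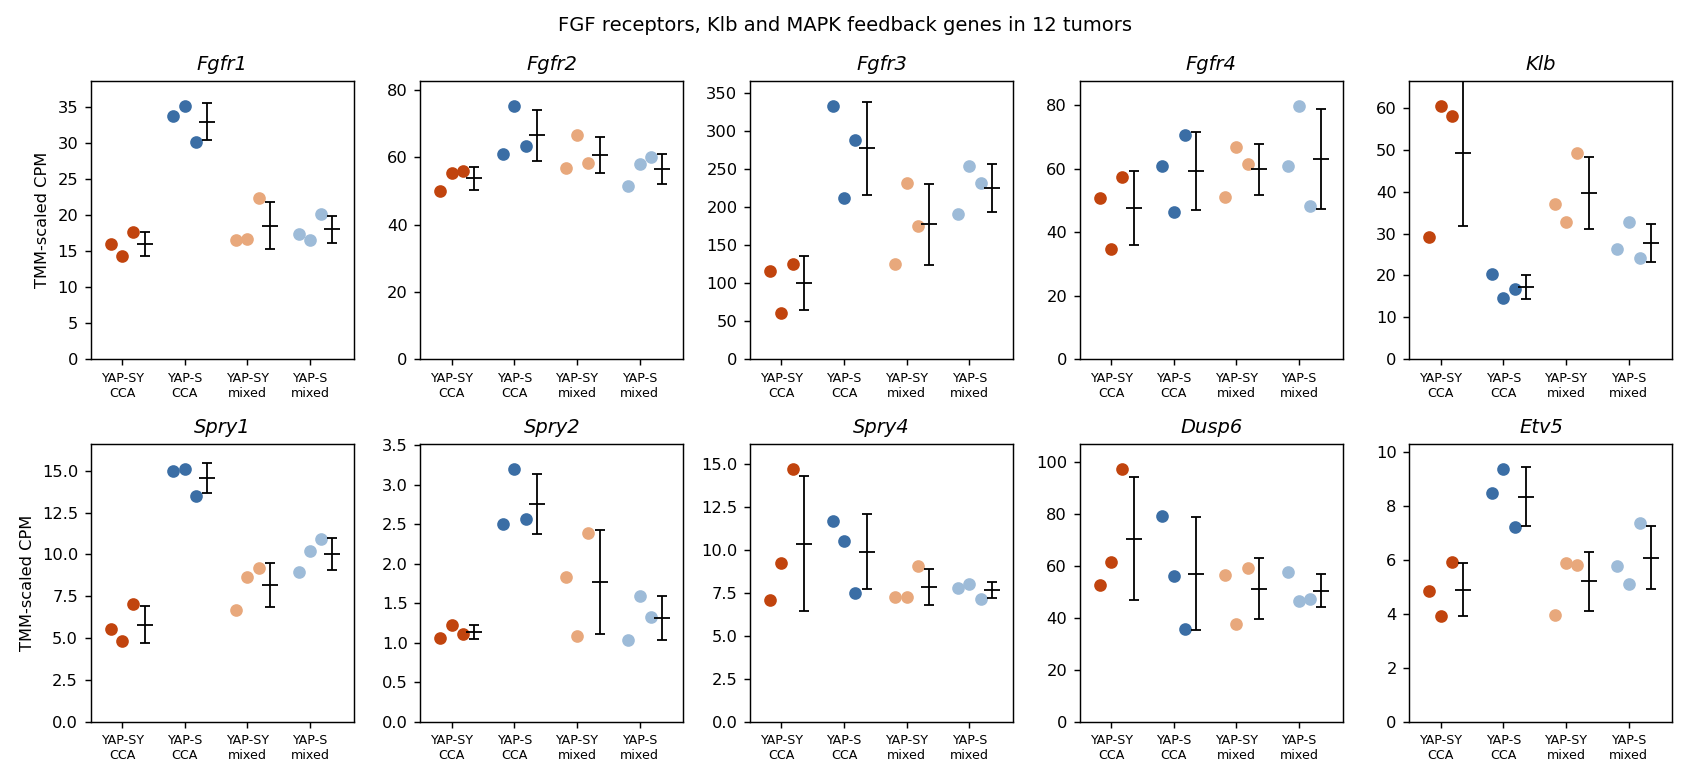
TMM-scaled CPM of the 10 genes in each of the 12 tumors; points are tumors, and the bar beside them is the mean with its SD (n = 3). Fgfr1 lies at 14.3 to 17.6 CPM in YAP-SY CCA tumors and at 30.1 to 35.1 CPM in YAP-S CCA tumors, whereas the values of both mixed groups overlap for all 10 genes.

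Among the receptors, Fgfr3 showed the widest gap. The gene lies on chromosome 5 (mm10, 33721724 to 33737068, ENSMUSG00000054252) and encodes a receptor best known for restraining growth of cartilage. Fgfr3 measured 116, 59.9 and 125 CPM in the YAP-SY CCA tumors 1, 6 and 8, against 332, 211 and 288 CPM in the YAP-S CCA tumors 3, 4 and 5. All 3 YAP-SY CCA tumors were below all 3 YAP-S CCA tumors, and tumor 6 was the lowest of the 12. The level was 2.77-fold lower in YAP-SY CCA (log2 fold change -1.47, SE 0.29, adjusted p = 0.00199). Mixed tumors had intermediate means, with 125, 231 and 175 CPM in the YAP-SY mixed tumors 3, 5 and 9 and 190, 253 and 231 CPM in the YAP-S mixed tumors 2, 7 and 9. From low to high, mean levels were 100 ± 35.1 CPM in YAP-SY CCA, 177 ± 53.2 in YAP-SY mixed, 225 ± 32.1 in YAP-S mixed and 277 ± 61.1 in YAP-S CCA tumors (SD, n = 3 each). No pair of neighbours in that order passed the test. The 200 bases shown lie upstream of Fgfr3, the member with the most negative log2 fold change (RefSeq, GRCm38.p6, chr5:33721474-33721673, plus strand, 5′ to 3′).
Fgfr3: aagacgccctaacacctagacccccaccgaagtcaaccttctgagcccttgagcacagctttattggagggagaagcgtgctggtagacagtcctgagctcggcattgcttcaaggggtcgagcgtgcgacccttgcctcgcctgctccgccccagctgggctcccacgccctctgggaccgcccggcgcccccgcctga

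Fgfr1 on chromosome 8 (25513654 to 25575714, ENSMUSG00000031565), a receptor that is prominent in mesenchymal cells, measured 16.0, 14.3 and 17.6 CPM in the YAP-SY CCA tumors 1, 6 and 8, against 33.7, 35.1 and 30.1 CPM in the YAP-S CCA tumors 3, 4 and 5. Each group kept within a narrow band, and the level was 2.06-fold lower in YAP-SY CCA (log2 fold change -1.05, SE 0.16, adjusted p = 0.000428). Both mixed groups sat close to YAP-SY CCA, with 16.6, 16.7 and 22.3 CPM in the YAP-SY mixed tumors 3, 5 and 9 and 17.4, 16.5 and 20.1 CPM in the YAP-S mixed tumors 2, 7 and 9. YAP-S CCA was thus the group that stood apart for Fgfr1. Summed fibroblast markers were also highest in YAP-S CCA, and mixed tumors had 689 to 1020 CPM of them in YAP-SY and 851 to 1110 CPM in YAP-S. Of these markers, Dcn and Lrat were not called between the CCA groups. The part of fibroblast markers in the Fgfr1 result was not tested.

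Fgfr2 on chromosome 7 (130162451 to 133123350, ENSMUSG00000030849), the receptor that is rearranged in a share of human bile duct cancers, differed less. It measured 49.9, 55.5 and 56.0 CPM in the YAP-SY CCA tumors 1, 6 and 8, against 61.1, 75.2 and 63.3 CPM in the YAP-S CCA tumors 3, 4 and 5. The groups did not overlap, but the difference missed the threshold (log2 fold change -0.31, SE 0.12, adjusted p = 0.0678). It passed with upper quartile factors (-0.33, adjusted p = 0.0407) and with library size alone (-0.87, adjusted p = 0.00043). The span given for Fgfr2 in the tumor table overlaps 43 other listed genes. In GENCODE M21, which may not be the authors' annotation, Fgfr2 shares 314 exon bases with Ctbp2 on the same strand. On the opposite strand, Fgfr3 shares 998 exon bases with G630022F23Rik, Spry1 shares 710 with Gm42922 and Fgfr1 shares 164 with Gm16159, which had 0 counts in all tumors. Whether the counting used strand is not stated, so reads in these stretches are of uncertain origin for all 4 genes.

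Fgfr4 on chromosome 13 (55152640 to 55168759, ENSMUSG00000005320), the main FGF receptor of hepatocytes, measured 50.8, 34.7 and 57.4 CPM in the YAP-SY CCA tumors 1, 6 and 8, against 60.8, 46.3 and 70.6 CPM in the YAP-S CCA tumors 3, 4 and 5. The ranges overlapped and no difference was called (log2 fold change -0.31, SE 0.23, adjusted p = 0.292). With library size alone Fgfr4 was called lower (-0.88, adjusted p = 0.018). Mixed tumors covered much the same levels, 51.1 to 66.9 CPM in YAP-SY and 48.3 to 79.7 CPM in YAP-S.

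The make-up of the receptor pool also differed between the CCA groups. Shares were computed within each library from CPM per kilobase of gene length and do not depend on library scaling. Fgfr3 made up 41.9%, 31.1% and 40.9% of the 4 receptors in the YAP-SY CCA tumors 1, 6 and 8, against 61.8%, 52.4% and 56.3% in the YAP-S CCA tumors 3, 4 and 5. Fgfr4 made up 35.9%, 35.1% and 36.7% in the same YAP-SY CCA tumors, against 22.1%, 22.4% and 26.9% in the YAP-S CCA tumors. Neither share overlapped between the CCA groups, with or without division by length. The order of Fgfr4 and Fgfr2 depended on that division. In YAP-SY CCA, Fgfr4 averaged 35.9% and Fgfr2 20.7% per length, but 21.8% and 25.7% by counts alone. Shares within a pool depend on each other, so a lower Fgfr3 share by itself raises that of Fgfr4, whose level was not called different. Fgfr2 averaged 20.7% ± 5.84 in YAP-SY CCA and 13.5% ± 3.77 in YAP-S CCA, and Fgfr1 5.38% ± 0.798 in YAP-SY CCA and 5.91% ± 1.3 in YAP-S CCA (SD, n = 3 each), with overlapping values. The sum of the 4 receptors was 39.9, 27.9 and 44.2 CPM per kilobase in the YAP-SY CCA tumors 1, 6 and 8, against 77.8, 58.4 and 74.1 in the YAP-S CCA tumors 3, 4 and 5. In mixed tumors Fgfr3 averaged 47.5% ± 4.96 in YAP-SY and 53.9% ± 3.52 in YAP-S, and the ranges overlapped. Fgfr4 averaged 32% ± 2.18 in YAP-SY mixed and 29.3% ± 5 in YAP-S mixed tumors, also with overlapping ranges. These shares are a description and were not tested.

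**Figure D2:**
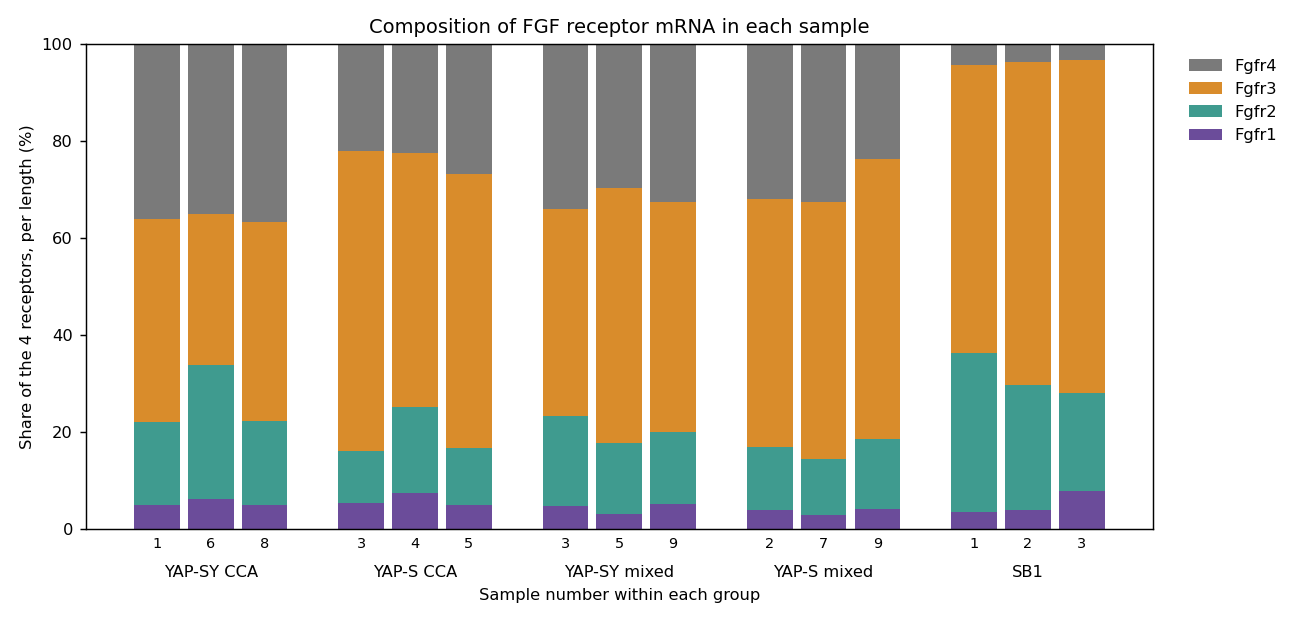
Share of each FGF receptor in the sum of the 4, on a per-length scale in percent, for each tumor and SB1 sample. Fgfr3 takes 31.1% to 41.9% in YAP-SY CCA tumors and 52.4% to 61.8% in YAP-S CCA tumors, and Fgfr4 takes 3.22% to 4.25% in SB1.

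Klb was the only member called higher in YAP-SY CCA tumors. The gene lies on chromosome 5 (65348386 to 65384003, ENSMUSG00000029195), and beta-Klotho lets FGFR4 and FGFR1 bind the endocrine FGFs. Klb measured 29.1, 60.5 and 58.2 CPM in the YAP-SY CCA tumors 1, 6 and 8, against 20.4, 14.7 and 16.8 CPM in the YAP-S CCA tumors 3, 4 and 5. Tumor 1 was the lowest of the YAP-SY CCA tumors but still above all YAP-S CCA tumors. The level was 2.85-fold higher in YAP-SY CCA (log2 fold change 1.51, SE 0.26, adjusted p = 0.000991). YAP-SY mixed tumors 3, 5 and 9 had 37.2, 32.7 and 49.3 CPM, and YAP-S mixed tumors 2, 7 and 9 had 26.4, 32.8 and 24.1 CPM. By mean, Klb followed the order YAP-SY CCA (49.3 ± 17.5 CPM), YAP-SY mixed (39.7 ± 8.6), YAP-S mixed (27.8 ± 4.52) and YAP-S CCA (17.3 ± 2.89; SD, n = 3 each), in which no neighbours differed past the threshold. Summed hepatocyte markers were likewise highest in YAP-SY CCA and lowest in YAP-S CCA, with overlapping ranges between, of 84900 to 111000 CPM in YAP-SY mixed and 79200 to 85900 CPM in YAP-S mixed tumors; their part in the Klb result was not tested. Set against its partner receptor on the per-length scale, Klb per Fgfr4 was 0.585, 1.78 and 1.04 in the YAP-SY CCA tumors 1, 6 and 8, against 0.343, 0.324 and 0.243 in the YAP-S CCA tumors 3, 4 and 5. That ratio did not overlap between the CCA groups. The 153 bases shown lie upstream of Klb, the member called higher (RefSeq, GRCm38.p6, chr5:65348161-65348313, plus strand, 5′ to 3′).
Klb: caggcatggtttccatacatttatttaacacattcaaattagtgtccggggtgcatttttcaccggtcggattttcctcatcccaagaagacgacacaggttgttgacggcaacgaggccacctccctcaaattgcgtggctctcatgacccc

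The Sprouty genes, which encode inhibitors of receptor tyrosine kinase signalling to RAS, did not move as one group. Spry1 on chromosome 3 (37639947 to 37644598, ENSMUSG00000037211) measured 5.57, 4.81 and 7.01 CPM in the YAP-SY CCA tumors 1, 6 and 8, against 15, 15.1 and 13.5 CPM in the YAP-S CCA tumors 3, 4 and 5. The level was 2.51-fold lower in YAP-SY CCA, with no overlap (log2 fold change -1.33, SE 0.19, adjusted p = 0.000318). YAP-SY mixed tumors 3, 5 and 9 had 6.69, 8.66 and 9.17 CPM, and YAP-S mixed tumors 2, 7 and 9 had 8.96, 10.2 and 10.9 CPM. All 6 mixed tumors therefore lay below the 3 YAP-S CCA tumors.

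Spry2 on chromosome 14 (105891949 to 105896819, ENSMUSG00000022114) had the fewest counts of the 10 genes, 40 to 307 per tumor. It measured 1.06, 1.23 and 1.11 CPM in the YAP-SY CCA tumors 1, 6 and 8, against 2.50, 3.20 and 2.57 CPM in the YAP-S CCA tumors 3, 4 and 5. The level was 2.43-fold lower in YAP-SY CCA (log2 fold change -1.28, SE 0.32, adjusted p = 0.00757). Among mixed tumors the YAP-SY values spread more widely, with 1.83, 1.08 and 2.39 CPM in YAP-SY tumors 3, 5 and 9 and 1.03, 1.59 and 1.33 CPM in YAP-S tumors 2, 7 and 9.

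Upstream sequences of Spry1 and Spry2 are shown because this pair fell together in YAP-SY CCA tumors and carried 2 of the 3 called differences between histologies described below. Both are 250 bases that end at the base before the annotated start (RefSeq, GRCm38.p6, 5′ to 3′): chr3:37639697-37639946 on the plus strand for Spry1 and chr14:105896820-105897069 on the minus strand for Spry2.
Spry1: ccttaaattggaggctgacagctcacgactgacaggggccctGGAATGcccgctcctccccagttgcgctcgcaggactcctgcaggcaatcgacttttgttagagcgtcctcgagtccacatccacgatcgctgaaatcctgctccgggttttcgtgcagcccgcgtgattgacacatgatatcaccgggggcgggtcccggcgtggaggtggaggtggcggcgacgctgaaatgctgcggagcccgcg
Spry2: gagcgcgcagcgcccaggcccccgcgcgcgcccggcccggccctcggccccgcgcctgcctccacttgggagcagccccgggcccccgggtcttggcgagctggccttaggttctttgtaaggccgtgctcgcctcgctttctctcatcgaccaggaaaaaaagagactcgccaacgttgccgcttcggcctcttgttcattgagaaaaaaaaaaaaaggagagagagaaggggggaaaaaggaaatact
Capitals mark the letters GGAATG, a motif of TEAD, the factor through which YAP acts on DNA. This and other motifs were searched on both strands in the 250 bases before each start in the promoter table, which held 10 windows for 8 of the 10 genes (all but Fgfr1 and Spry4). The others were the ETS motif CCGGAAG, the AP-1 motif TGANTCA and the HNF4 motif CAAAGTCCA, none of which contains another. Of the 32851 windows in the table, 12.6% held the TEAD letters, 6.91% the ETS letters, 6.75% the AP-1 letters and 0.384% the HNF4 letters. The match in Spry1, 208 bases before the start, was the single match in the windows of the 8 genes.

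Spry4 on chromosome 18 (38586268 to 38601268, ENSMUSG00000024427) did not follow the other two. It measured 7.09, 9.25 and 14.7 CPM in the YAP-SY CCA tumors 1, 6 and 8, against 11.7, 10.5 and 7.49 CPM in the YAP-S CCA tumors 3, 4 and 5. The YAP-S CCA values lay inside the wider YAP-SY CCA range, and no difference was called (log2 fold change 0.06, SE 0.25, adjusted p = 0.868), and with library size alone the value turned to -0.49. Mixed tumors had 7.25 to 9.06 CPM in YAP-SY and 7.15 to 8.02 CPM in YAP-S.

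Dusp6 on chromosome 10 (99263231 to 99267488, ENSMUSG00000019960), which encodes a cytoplasmic phosphatase of ERK, measured 52.6, 61.4 and 97.4 CPM in the YAP-SY CCA tumors 1, 6 and 8, against 79.3, 56.2 and 35.6 CPM in the YAP-S CCA tumors 3, 4 and 5. Values overlapped widely and no difference was called (log2 fold change 0.30, SE 0.29, adjusted p = 0.429). The value was 0 without YAP-SY CCA tumor 8 and -0.24 with library size alone. Mixed tumors had 37.8 to 59.4 CPM in YAP-SY and 46.4 to 57.8 CPM in YAP-S.

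Etv5 on chromosome 16 (22381309 to 22439719, ENSMUSG00000013089), an ETS transcription factor of the PEA3 group, measured 4.85, 3.94 and 5.93 CPM in the YAP-SY CCA tumors 1, 6 and 8, against 8.48, 9.38 and 7.21 CPM in the YAP-S CCA tumors 3, 4 and 5. The groups did not overlap, and the level was 1.70-fold lower in YAP-SY CCA (log2 fold change -0.77, SE 0.23, adjusted p = 0.0185). This call was lost without YAP-SY CCA tumor 6 (-0.64, adjusted p = 0.0656) or without YAP-S CCA tumor 4 (-0.68, adjusted p = 0.0666). Mixed tumors had 3.96, 5.90 and 5.80 CPM in YAP-SY tumors 3, 5 and 9 and 5.77, 5.11 and 7.38 CPM in YAP-S tumors 2, 7 and 9. The feedback and output genes thus split in YAP-SY CCA tumors: Spry1, Spry2 and Etv5 were called lower, whereas Spry4 and Dusp6 were not called.

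In mixed tumors, YAP-SY against YAP-S gave no called member, and the call share over all tested genes was 0%. edgeR called 0 genes at an adjusted p below 0.05 and 551 at an unadjusted p below 0.05, DESeq2 called 11, and none of the 10 genes was called by either tool. The values of YAP-SY and YAP-S overlapped for each of the 10 genes, against non-overlap in 8.35% of all tested genes. The largest value was that of Klb, at 0.52 on the log2 scale (SE 0.26, adjusted p = 0.999). Spry2 was at 0.43 (SE 0.31), Fgfr3 at -0.34 (SE 0.28) and Spry1 at -0.29 (SE 0.18), each with an adjusted p of 0.999.

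Whether the YAP-SY difference itself depended on histology was tested as CCA minus mixed. It was called for 3 of the 10 genes, all more negative in CCA, against 15.2% of all tested genes in either direction and 10.2% in this one. Fgfr1 had a difference of -1.09 (SE 0.22, adjusted p = 0.0088), which stayed called in each of the 20 alternatives run. Spry1 had a difference of -1.04 (SE 0.26, adjusted p = 0.0219). This call was lost without YAP-S CCA tumor 4 (-1.01, adjusted p = 0.0508) or YAP-S mixed tumor 2 (-0.96, adjusted p = 0.0687). Spry2 had a difference of -1.71 (SE 0.45, adjusted p = 0.0257). Its call was lost in 6 alternatives with adjusted p-values of 0.0517 to 0.0765, which left out YAP-S CCA tumor 4 or 5, YAP-SY mixed tumor 9, YAP-S mixed tumor 2 or 9, or the 2 YAP-SY tumors described as Mut1. Fgfr3 (-1.13, SE 0.40, adjusted p = 0.0733) and Klb (0.99, SE 0.36, adjusted p = 0.0795) missed the threshold. Klb passed in 3 of 20 alternatives, among them the fit without YAP-SY CCA tumor 1 (1.27, adjusted p = 0.0165). Fgfr3 passed in 5 of 20, among them the fit without YAP-SY mixed tumor 3 (-1.32, adjusted p = 0.0389). With library size alone 6 members were called, all more negative in CCA, while the calls over all genes turned to 150 more positive and 4180 more negative, against 920 and 1868 with TMM.

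**Figure D3:**
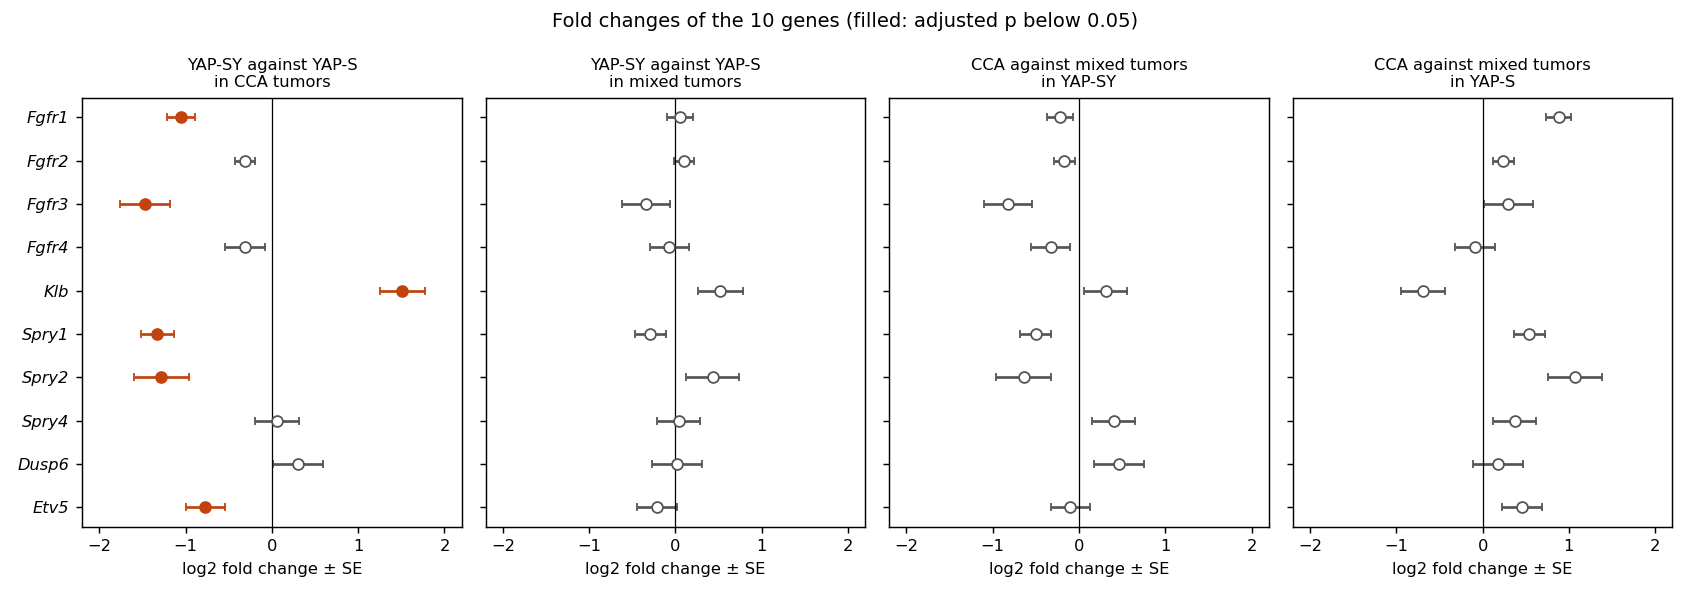
Log2 fold changes with SE of the 10 genes in 4 comparisons from the edgeR fit of 12 tumors; filled points have an adjusted p below 0.05. Filled points occur only for YAP-SY against YAP-S in CCA tumors, where Klb is at 1.51 and Fgfr3 at -1.47.

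CCA tumors were also set against mixed tumors within each form of YAP. In YAP-SY, edgeR called no member, against 2.90% of all tested genes; 2 members had an unadjusted p below 0.05, and DESeq2 called none. Of the 10 genes, 2 did not overlap, against 20.1% of all tested genes. Those 2 were Fgfr3 (-0.82, SE 0.28, adjusted p = 0.125) and Fgfr2 (-0.17, SE 0.12, adjusted p = 0.439), both lower in CCA, against 12.1% of all tested genes without overlap in that direction. In YAP-S, edgeR again called no member and 0% of all tested genes, while 3636 genes and 4 of the members had an unadjusted p below 0.05. DESeq2 called 1514 genes, 3 of the members among them. Here 5 of the 10 genes did not overlap, against 37.8% of all tested genes. They were 4 that were higher in CCA, against 20.2% of all tested genes, and 1 that was lower, against 17.6%. Fgfr1 was 0.88 higher in CCA on the log2 scale (SE 0.15, adjusted p = 0.0527), just outside the threshold, and passed it in 9 of 15 alternatives. In each fit without 1 YAP-S tumor, Fgfr1 was not called. Spry2 (1.07, SE 0.31, adjusted p = 0.0976), Spry1 (0.54, SE 0.18, adjusted p = 0.136) and Fgfr2 (0.24, SE 0.12, adjusted p = 0.314) had positive values, and Klb a negative one (-0.69, SE 0.26, adjusted p = 0.169). Both sets of comparisons share tumors with those between the forms of YAP.

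Genes around the receptors were taken from 5 lists, from ligands to targets. Their counts in CCA tumors are again to be read against 39.1% called, 18.3% higher and 20.8% lower. Among 10 ligand genes, 6 were tested, with 1 higher, 1 lower and a median log2 fold change of 0.48. Fgf1, a ligand of all 4 receptors, averaged 113 ± 14.5 CPM in YAP-SY CCA and 57.5 ± 11.1 CPM in YAP-S CCA (log2 fold change 0.97, SE 0.20, adjusted p = 0.00246). The ligand called lower was Fgf2, at 0.201 ± 0.192 CPM in YAP-SY CCA, a level too low for the rule on named genes, and its call did not hold without YAP-SY CCA tumor 6 or 8 or YAP-S CCA tumor 3 or 4. Fgf21, the hormone that signals through beta-Klotho, averaged 10.3 ± 8.33 CPM in YAP-SY CCA and 4.47 ± 2.67 CPM in YAP-S CCA and was not called (1.21, SE 0.71, adjusted p = 0.196). Fgf15, which the ileum makes, had 1 count in all 12 tumors together, and the co-receptor gene Kl had 67.

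Of 17 co-receptor and surface partner genes, 16 were tested, with 2 higher, 7 lower and a median of -0.24. Ncam1, a cell adhesion molecule that can bind FGF receptors, was 5.62-fold lower in YAP-SY CCA (1.71 ± 0.683 CPM) than in YAP-S CCA (9.63 ± 4.06 CPM; adjusted p = 0.000642). Flrt3 and Flrt2, leucine-rich membrane proteins that bind FGF receptors, had log2 fold changes of -1.92 (adjusted p = 0.000811) and -1.88 (adjusted p = 0.00172). Sdc2, a heparan sulfate proteoglycan, went the other way, at 231 ± 22.8 CPM in YAP-SY CCA and 135 ± 14.0 CPM in YAP-S CCA (0.77, adjusted p = 0.00125). With library size alone, 9 genes of this list were lower and none was higher.

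The 18 adaptor and RAS-MAPK core genes were split, with 4 higher, 3 lower and a median of -0.02. Sos1, the exchange factor that loads RAS, averaged 59.9 ± 4.9 CPM in YAP-SY CCA and 32.8 ± 3.15 CPM in YAP-S CCA (0.87, adjusted p = 0.000312). The kinase gene Braf (0.63, adjusted p = 0.0101) was also higher. Mapk3, which encodes ERK1, was lower, at 47.1 ± 12.1 CPM in YAP-SY CCA and 90.7 ± 4.74 CPM in YAP-S CCA (-0.94, adjusted p = 0.00322). With library size alone this split turned to 1 higher and 10 lower.

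Of 18 other MAPK feedback and output genes, 17 were tested and 10 were lower, none higher, with a median of -1.33. Ccnd1, the cell cycle gene for cyclin D1, averaged 79.2 ± 20.5 CPM in YAP-SY CCA and 334 ± 16.4 CPM in YAP-S CCA (-2.08, SE 0.25, adjusted p = 0.000161). Ier3, an immediate early gene, was 11.5-fold lower in YAP-SY CCA (adjusted p = 0.000199). Spred3, a relative of the Sprouty genes, was 3.16-fold lower (adjusted p = 0.00039), and Etv4, a relative of Etv5, 5.85-fold lower (adjusted p = 0.000502). The list held genes that did not pass too, such as Dusp1 (0.60, adjusted p = 0.166), an inducible nuclear phosphatase named here after its value was seen. Spry1, Spry2 and Etv5 moved in the same direction as each of the 10 called genes of this list. The list was chosen with earlier results of these data known, so the shared direction is not an independent result.

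The 9 hepatic targets of FGF15 and FGF21 signalling included 6 that were higher and none lower, with a median of 1.01. Slc10a1, the bile acid importer of hepatocytes, averaged 607 ± 88.9 CPM in YAP-SY CCA and 174 ± 37.3 CPM in YAP-S CCA (1.80, SE 0.30, adjusted p = 0.000808). Cyp7a1, the rate-limiting enzyme of bile acid synthesis that FGF15 represses, averaged 202 ± 22.2 CPM in YAP-SY CCA and 63.6 ± 22.4 CPM in YAP-S CCA (1.67, SE 0.32, adjusted p = 0.00194). Cyp7b1, of the alternative pathway of bile acid synthesis, had a log2 fold change of 1.66 (adjusted p = 0.00244), and Ppargc1a, a coactivator of fasting metabolism, of 0.89 (adjusted p = 0.00461). The median of the list was the same as that of the 10 hepatocyte markers, 1.01, and with library size alone 3 of its genes were called higher and none lower. In mixed tumors neither edgeR nor DESeq2 called a gene of any of the 5 lists, and 1 co-receptor gene and 1 hepatic target had an unadjusted p below 0.05. In the test of CCA minus mixed, against 15.2% of all tested genes called and 10.2% called more negative in CCA, the feedback and output list had 6 genes more negative and none more positive. Its smallest p was that of Ccnd1 (-2.10, SE 0.34, adjusted p = 0.00426). The co-receptor list had 1 more positive and 4 more negative, the core list 2 and 1, and the ligand and hepatic target lists 1 more positive each and none more negative. Between CCA and mixed tumors in YAP-SY, the named genes past the threshold were Flrt3 (-1.53, adjusted p = 0.0304), Ier3 (-1.90, adjusted p = 0.0391) and Ccnd1 (-1.05, adjusted p = 0.0418), all lower in CCA, against 2.90% of all tested genes called. None of the 3 was called without YAP-SY CCA tumor 6 or in a fit of only the 2 groups, where 0 genes were called in all.

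**Figure D4:**
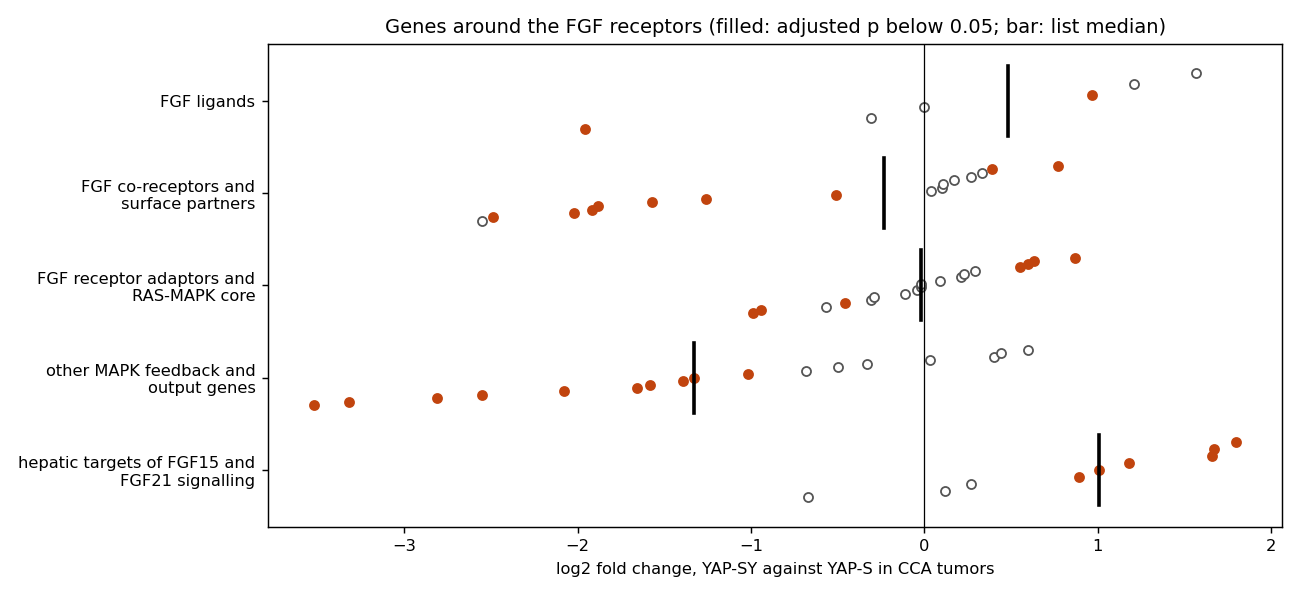
Log2 fold change of YAP-SY against YAP-S in CCA tumors for each tested gene of 5 lists around the FGF receptors; filled points have an adjusted p below 0.05 and bars are list medians. The feedback and output genes have a median of -1.33 and the hepatic targets of 1.01, against 0 for all tested genes.

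In SB1 cells, levels are given as CPM of the library size, as are the YAP-S CCA tumor levels set beside them. The tables were deposited separately and processed differently, so no test was made. Klb measured 0.720, 0.513 and 0.495 CPM in SB1 samples 1, 2 and 3, from 22, 13 and 13 counts, against 23.9, 16.8 and 21.7 CPM in the YAP-S CCA tumors 3, 4 and 5. Fgfr4 measured 5.24, 4.18 and 3.20 CPM in SB1, against 71.3, 52.9 and 91.4 CPM in those tumors. Both genes lay far below every YAP-S CCA tumor in SB1, where summed hepatocyte markers were 702 to 1210 CPM and cholangiocyte markers 2610 to 3030 CPM. Most hepatocyte marker counts per SB1 sample came from Alb (15515 to 33988), with Hnf4a at 1378 to 1748 and F2 at 5 to 11. Most cholangiocyte marker counts came from Krt19 (33604 to 47025) and Spp1 (20340 to 32745), with Epcam at 3 to 10.

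The other receptors were closer to the tumor levels. Fgfr3 measured 143, 151 and 133 CPM in SB1, against 389, 242 and 373 CPM in the YAP-S CCA tumors 3, 4 and 5. Fgfr2 measured 83.1, 61.0 and 41.1 CPM in SB1, against 71.6, 86.0 and 81.9 CPM in the tumors, with overlapping values. Per length, Fgfr3 made up 64.9% ± 4.95 of the 4 receptors in SB1, Fgfr2 26.3% ± 6.35 and Fgfr4 3.69% ± 0.516 (SD, n = 3). Fgfr1 measured 9.95, 10.5 and 17.7 CPM in SB1, against 39.5, 40.1 and 39.0 CPM in the tumors. Summed fibroblast markers were 476 to 635 CPM in SB1, with Lum and Lrat at 0. Most counts per SB1 sample came from Dcn (5555 to 8493), Col1a1 (2859 to 3650), Col3a1 (1431 to 2787) and Pdgfrb (1542 to 1915). Pdgfra had 337 to 490 counts, Acta2 131 to 564, Col1a2 64 to 131 and Postn 5 to 31.

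Feedback genes differed in their balance. Spry2 measured 15, 15.2 and 16.2 CPM in SB1, against 2.93, 3.66 and 3.33 CPM in the YAP-S CCA tumors 3, 4 and 5. How many of all genes lie apart in this way between SB1 and these tumors was not counted. On the per-length scale, Spry2 per Spry1 was 1.96, 2.31 and 2.36 in SB1, against 0.16 to 0.381 over the 12 tumors. Dusp6 measured 87.8, 89.0 and 128 CPM in SB1, against 92.9, 64.3 and 46.1 CPM in the tumors, while Spry4 measured 3.73, 4.89 and 4.30 CPM in SB1, against 13.7, 12 and 9.70 CPM. Dusp6 per Spry4, per length, was therefore 38.6, 29.8 and 48.9 in SB1, against 7.79 to 12.8 over the 12 tumors. Spry1 (9.15 to 10.7 CPM in SB1, 17.3 to 17.6 CPM in the tumors) and Etv5 (3.28 to 4.98 CPM in SB1, 9.33 to 10.7 CPM in the tumors) were lower in the line. SB1 also held 390 to 446 counts of the ligand gene Fgf18 and 614 to 901 of Fgf13, where the highest tumor had 41 and 149. Not all ligand genes went this way: SB1 held 350 to 399 counts of Fgf1 and 1 to 22 of Fgf21, where the highest tumor had 10675 and 1639.

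**Figure D5:**
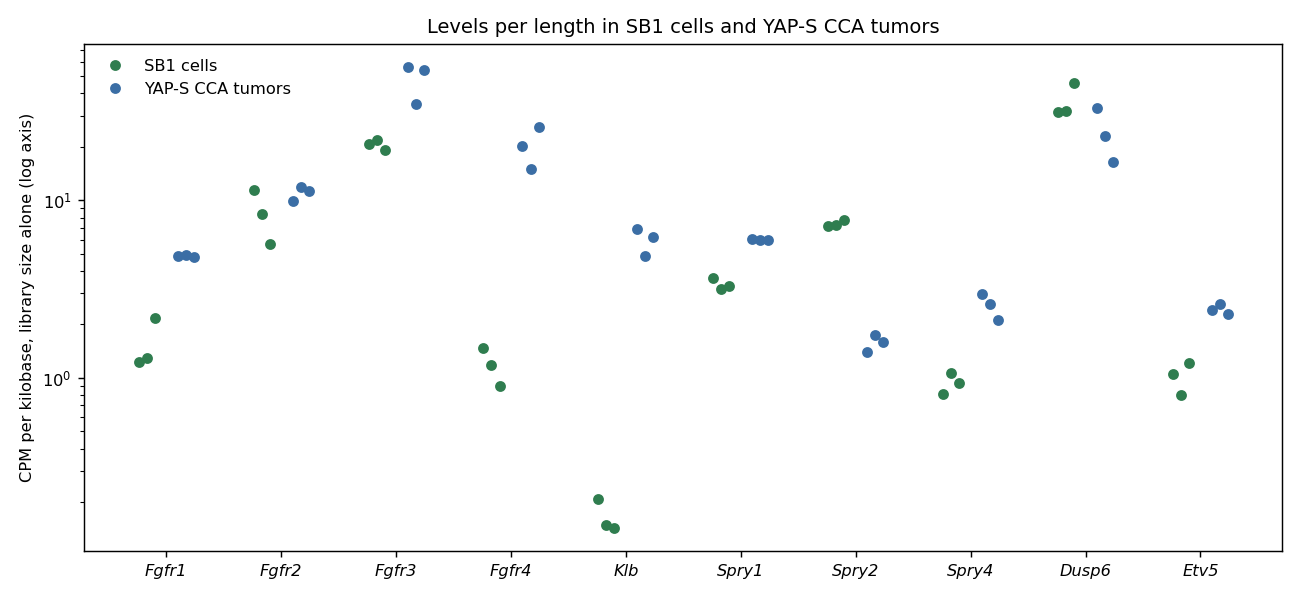
CPM per kilobase of gene length, scaled by library size alone and drawn on a log axis, for the 10 genes in 3 SB1 samples and 3 YAP-S CCA tumors; points are samples. Klb and Fgfr4 lie far lower in SB1, Spry2 lies higher in SB1, and Fgfr2 overlaps.

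Likeness of pattern was described by the mean absolute difference of standardised log2 CPM over the 12 tumors, in SD units, where 0 is an identical pattern. Among the members, the closest pair was Fgfr3 and Spry1 (0.30), followed by Etv5 with Spry1 (0.356) and Fgfr1 with Etv5 (0.416). Spry4 and Dusp6 were each other's closest member (0.456). Klb was the farthest from any other, with 0.819 to Dusp6. Among 10632 other genes with a mean of at least 5 CPM, Spry1 was closest to Emp3 (0.117), Sema7a (0.123) and Tns3 (0.127), and all 3 were again its nearest with library size alone. Fgfr4 was closest to Idh2 (0.178), the mitochondrial isocitrate dehydrogenase, and Klb to Nhlrc3 (0.181), Agtr1a (0.187) and Slco1a4 (0.203). Fgfr1 was closest to Itpkb (0.185), Fgfr3 to Tmem101 (0.168), Etv5 to Idua (0.196) and Spry2 to Fbln2 (0.201), an extracellular matrix gene. Spry4 had Trib3 (0.264) and Vegfa (0.275) as its nearest genes, and Dusp6 had Agxt (0.26). The genes nearest to Fgfr2 and to Fgfr3 were all different with library size alone. All values share the 12 libraries and their scaling.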

How the data were processed

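RNA of tumor nodules and cell lines was sequenced as mRNA libraries (TruSeq), per the labels' protocols; the submitters' processing notes name STAR and mm10, and no version, annotation or counting tool is given in the sources used here. The authors deposited tumor values as counts per gene that they call corrected; how is not stated. SB1 values were deposited as raw counts in a table of their own, whose 3 further columns match no sample label and were not used. Groups come from the genotype labels. Nothing says more of how the tumors were drawn, so p-values only set group differences against the spread between these samples. Counts were filtered with filterByExpr by group, scaled by TMM and fitted with 1 term per group over 12 tumors in edgeR 4.0.16 (R 4.3.3; quasi-likelihood F-test, 5 contrasts, Benjamini-Hochberg over 18318 genes, threshold 0.05), after a test of the script on simulated data. log2 CPM used a prior count of 1. Alternatives were other scalings, no filter, DESeq2 1.42.0, limma 3.58.1 voom, and leaving out tumors. Receptor shares were also taken without division by length. The 10 genes and all lists were chosen with earlier results of these data known. Named list genes are up to 4 per list with the smallest p among called genes whose higher group averaged 1 CPM or more, plus Fgf15, Fgf21 and Kl; the 3 nearest genes per member were found, of which some are named. Some genes named by these rules are not reported here. Depth limits precision most for Spry2, and it covers counting error only.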

Additional observations from a re-analysis of the deposited data

Results flagged for a closer look

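For 3 of the 10 genes the difference between YAP-SY and YAP-S tumors was itself different in the 2 histologies, by the contrast of CCA minus mixed in edgeR (quasi-likelihood F-test, Benjamini-Hochberg adjusted p below 0.05). Fgfr1 had a value of -1.09 on the log2 scale, with -1.05 in CCA tumors and 0.05 in mixed tumors. For Spry1 the value was -1.04, with -1.33 in CCA and -0.29 in mixed tumors. For Spry2 it was -1.71, with -1.28 in CCA and 0.43 in mixed tumors, neither of the mixed tumor values being called. Of all tested genes, 15.2% had such a difference and 10.2% one in this direction. The Fgfr1 call held in each of 20 alternatives, that of Spry1 was lost in 2 and that of Spry2 in 6, and leaving out 1 tumor brought the number of called members to between 1 and 4. Summed fibroblast and stellate cell markers also differed more between the forms of YAP in CCA tumors (484 to 657 CPM in YAP-SY, 1990 to 2490 CPM in YAP-S) than in mixed tumors (689 to 1020 CPM in YAP-SY, 851 to 1110 CPM in YAP-S). In the same contrast 7 of 10 fibroblast, 4 of 10 cholangiocyte, 2 of 7 leukocyte and 1 of 8 endothelial markers were called more negative in CCA, and 5 of 10 hepatocyte markers more positive. The part of these cell type differences in the 3 values was not tested.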

How the results depend on the processing

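The calls of Fgfr1, Fgfr3, Klb, Spry1 and Spry2 in CCA tumors held in each of 15 alternatives, and that of Etv5 in 13. Leaving out 1 tumor gave 5 to 6 called members and 5121 to 6869 called genes in CCA, 0 of each in mixed tumors, and 1 to 4 members and 1058 to 3077 genes for CCA minus mixed. CCA against mixed gave 0 members and 0 to 595 genes in YAP-SY (0 without YAP-SY CCA tumor 6) and 0 of each in YAP-S. DESeq2 called 11 genes in mixed tumors. For CCA minus mixed, library size alone gave 6 members and 4330 genes and DESeq2 gave 5 and 4231. For CCA against mixed in YAP-SY, library size alone gave 3 members and 2006 genes, no filter gave 859 genes, DESeq2 1834, voom with quality weights 16 and a fit of only the 2 groups 0. In YAP-S, RLE factors gave 1 member and 117 genes, library size alone 2 and 711, upper quartile factors 1 and 137, no filter 1 and 570, DESeq2 3 and 1514, quality weights 4 and 3609, leaving out the Mut1 tumors 1 and 200, and only the 2 groups 4 and 2393. The cause was not tested.

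The numbers were not used as pairs, since it is not stated whether they mark animals shared between the forms of YAP. Same-numbered tumors deviated together with r of 0.18 (number 3), 0.35 (5) and 0.09 (9), against -0.31 to 0.29 for different numbers. Of the same-numbered tumors, 1 of 3 YAP-SY and 2 of 3 YAP-S tumors correlated best with their own number. With only 3 such pairs, these values do not decide whether the tumors are paired. A voom fit with the number as a block (consensus correlation 0.22) called 6, 0, 3, 0 and 1 members in the 5 contrasts, and 46 genes for CCA against mixed in YAP-SY and 991 in YAP-S. Under the block Spry4 turned to -0.07 in CCA and -0.17 for CCA minus mixed.

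Changes of sign were found in uncalled values. In CCA tumors, library size alone gave Spry4 -0.49 and Dusp6 -0.24, leaving out the Mut1 tumors gave -0.28 and 0, and leaving out 1 tumor gave -0.28 to 0.28 and 0 to 0.6. In mixed tumors, library size alone gave Fgfr1 0, Spry4 -0.02 and Dusp6 -0.04, quality weights gave Fgfr1 -0.04, and leaving out the Mut1 tumors gave Fgfr4 0.03 and Dusp6 -0.05. Leaving out 1 mixed tumor gave Fgfr1 -0.11 to 0.13, Fgfr4 -0.24 to 0.13, Spry4 -0.08 to 0.09 and Dusp6 -0.1 to 0.2. For CCA minus mixed, library size alone gave Spry4 -0.47 and Dusp6 -0.2, leaving out the Mut1 tumors gave Spry4 -0.37, and leaving out 1 tumor gave Spry4 -0.32 to 0.24 and Dusp6 -0.03 to 0.59. For CCA against mixed, Etv5 in YAP-SY was 0.23 with quality weights and -0.25 to 0.04 without 1 tumor. In YAP-S, Fgfr4 was 0.13 with library size alone, 0.07 with quality weights and -0.23 to 0.11 without 1 tumor, and Dusp6 was -0.12 to 0.44.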
